A study of Mus musculus with 6 samples.

Results

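The genes described here are 10 genes of the calcium switch on the muscle thin filament, chosen by symbol as the troponin T genes Tnnt1, Tnnt2 and Tnnt3, the troponin I genes Tnni1 and Tnni2, the troponin C genes Tnnc1 and Tnnc2, and the tropomyosin genes Tpm1, Tpm2 and Tpm3. All 10 were found among the 55401 gene identifiers of the count table, and all 10 were among the 17222 genes with enough reads to be tested. They were measured by ribosomal RNA-depleted, stranded RNA-seq in whole tibialis anterior (TA), a fast muscle of the lower leg, from 6 libraries of male C57BL/6 mice. All 6 libraries carried the same genotype, HSA-MCM-Bmal1-/-, in which tamoxifen removes the core clock gene Bmal1 through a Cre recombinase driven by a skeletal muscle actin promoter, so the controls lack it too and no group with intact Bmal1 is described here. Recombination was induced at 12 to 16 weeks of age by 5 days of tamoxifen at 2 mg a day. Adeno-associated virus (AAV) was injected into the TA 4 weeks later, and another 4 weeks passed before collection. The control group received AAV-GFP (n = 3), and the other group received AAV-RBM20 (n = 3), which carries a mouse cDNA of the splicing factor RBM20 with an HA tag under a CMV promoter. The study's methods give the RBM20 vector the higher dose of the vectors, and dose and transgene cannot be told apart. The question for these genes was how the balance of their fast and slow forms compared between the groups.

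Troponin sits on the thin filament as a complex of 3 subunits. Troponin C binds calcium, troponin I holds the filament in its inhibited state, and troponin T anchors both to tropomyosin, the coiled-coil protein that lies along actin and covers or exposes the sites where myosin binds. Fast and slow fibres use different genes for the same subunits: Tnnt3, Tnni2 and Tnnc2 encode the fast skeletal forms, Tnnt1 and Tnni1 encode the slow skeletal forms, and Tnnc1 encodes the form shared by slow skeletal and cardiac muscle. Tnnt2 encodes cardiac troponin T, which is also made in immature skeletal muscle. Tpm1 encodes the alpha-tropomyosin of fast fibres, Tpm3 the slow alpha-tropomyosin, and Tpm2 the beta-tropomyosin. Tpm1 and Tpm3 also have transcripts used outside the sarcomere, which a count per gene does not separate.

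In GENCODE M21, on the mouse build GRCm38 (mm10), Tnni2 (ENSMUSG00000031097, chr7:142441808-142444410, plus strand) lies 54425 bp before Tnnt3 (ENSMUSG00000061723, chr7:142498836-142516009, plus strand). Tnni1 (ENSMUSG00000026418, chr1:135779434-135810989, plus strand) lies 25364 bp before Tnnt2 (ENSMUSG00000026414, chr1:135836354-135852260, plus strand). Tnnt1 (ENSMUSG00000064179, chr7:4504570-4516382, minus strand) lies 1922 bp from Tnni3, the cardiac troponin I gene. The troponin genes thus stand mostly in pairs of a T gene and an I gene, while the troponin C genes stand alone, Tnnc1 at chr14:31208312-31211729 on the plus strand and Tnnc2 at chr2:164777161-164779967 on the minus strand. The exons of Tnnc2 overlap those of Ube2c on the opposite strand. The strand setting of the counting was not stated, so the value of Tnnc2 is uncertain to that extent. The tropomyosin genes lie at chr9:67022590-67049406 (Tpm1, minus strand), chr4:43514711-43523765 (Tpm2, minus strand) and chr3:90072649-90100902 (Tpm3, plus strand).

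Promoters of 8 of the 10 genes, 11 sequences in all, matched RefSeq's promoter table of build GRCm38.p6 by symbol, and Tnnt3 and Tnni2 did not match. The 250 bases before the start are shown for the 3 slow troponin genes and for Tnnc2, the listed fast troponin gene, because the fast-to-slow comparison rests on these genes. Each is written 5′ to 3′ on its own strand. Capitals mark the E-box CANNTG, the site of myogenic and clock basic helix-loop-helix factors, which reads the same on both strands, and the TATA box TATAAA.
Tnnt1, chr7:4515976-4516225, minus strand: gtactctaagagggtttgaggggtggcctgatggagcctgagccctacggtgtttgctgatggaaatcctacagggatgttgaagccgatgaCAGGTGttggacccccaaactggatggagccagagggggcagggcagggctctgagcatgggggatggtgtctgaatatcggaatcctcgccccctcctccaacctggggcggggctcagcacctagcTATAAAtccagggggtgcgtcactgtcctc
Tnni1, chr1:135799171-135799420, plus strand, the first of 2 listed starts: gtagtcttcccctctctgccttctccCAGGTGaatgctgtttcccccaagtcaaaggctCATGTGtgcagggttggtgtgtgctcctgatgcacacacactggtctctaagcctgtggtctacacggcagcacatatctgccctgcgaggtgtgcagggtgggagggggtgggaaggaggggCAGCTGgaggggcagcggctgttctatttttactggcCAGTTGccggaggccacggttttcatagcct
Tnnc1, chr14:31208062-31208311, plus strand: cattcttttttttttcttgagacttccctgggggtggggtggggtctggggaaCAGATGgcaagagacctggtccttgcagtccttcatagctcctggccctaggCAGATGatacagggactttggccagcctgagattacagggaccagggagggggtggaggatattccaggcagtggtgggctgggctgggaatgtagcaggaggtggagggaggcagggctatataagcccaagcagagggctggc
Tnnc2, chr2:164779735-164779984, minus strand: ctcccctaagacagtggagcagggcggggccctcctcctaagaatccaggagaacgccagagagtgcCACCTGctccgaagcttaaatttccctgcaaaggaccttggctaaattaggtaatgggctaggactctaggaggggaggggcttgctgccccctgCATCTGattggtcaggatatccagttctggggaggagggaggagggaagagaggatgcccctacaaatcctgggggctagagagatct
An E-box was present in 11 of the 11 promoters of these genes and in 66.2% of the 32851 promoters in the table. The 11 windows belong to 8 genes, and the 2 windows of Tnni1 overlap and share E-boxes. The motif CACGTG, the E-box form bound by BMAL1 with its partner CLOCK, was in none of the 11 windows and in 6.02% of all promoters. TATAAA, searched on both strands, was found only at Tnnt1 among the 11 and in 12.4% of all promoters. The MEF2 motif and the CArG box, searched on both strands, were in none of the 11 and in 2.92% and 1.47% of all promoters. These matches describe letters in a window and not bound sites.

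Library totals ranged from 41400132 to 54226618 counts. The libraries numbered 3 in either group stood apart: titin (Ttn) reads were 4.48% of the counts in AAV-GFP 3 and 9.05% in AAV-RBM20 3, against 16.9% to 17.8% in the other 4 libraries, and mitochondrial reads were 12.5% and 11.4%, against 6.41% to 7.66%. The fold changes of the troponins, Tpm1 and the fast-to-slow ratios are therefore also given without these libraries. Such values are given for some list genes too, and list genes without them may have moved as much. Rbm20 itself had 164 to 170 CPM (counts scaled to a common library size with TMM factors) after AAV-GFP and 406 to 545 CPM after AAV-RBM20, a ratio of means of 2.91 (log2 fold change 1.54 ± 0.15 SE, edgeR adjusted p = 0.121). The labels do not say that the libraries come from separate mice, so the p-values measure the spread between these samples. In the study's blot lane labels, some identifying numbers appear with both vectors, marked R with GFP and L with RBM20. Whether the libraries described here share mice in that way is not stated.

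None of the 10 genes passed an adjusted p of 0.05 in the edgeR quasi-likelihood test, which called 0.00% of all genes tested. The 3 fast troponins and Tpm1 were nevertheless lower in every AAV-RBM20 library than in any AAV-GFP library, by 32.7% to 41.4% in the means. That makes 4 of 10 genes whose groups did not overlap and were lower after AAV-RBM20, against a background of 9.04% of all genes tested. No gene of the 10 had all AAV-RBM20 libraries above all AAV-GFP libraries (7.71% of all genes tested), and 6 overlapped. At an unadjusted p under 0.05, edgeR counted 4 of the 10 (Tnnt3, Tnni2, Tnnc2 and Tnni1), against 7.90% of all genes tested. DESeq2 called 1 of the 10, Tnnc2, against 0.362% of its genes, limma-voom called 0, and edgeR with the replicate number as a block called 0 of the 10, against 0.145% of all genes tested. The median log2 fold change of the 10 was 0.11, against 0.01 over all genes tested, since fast and slow members stood on opposite sides of zero.

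Tnnt3, fast troponin T, had 6749, 6515 and 8483 CPM in AAV-GFP libraries 1 to 3 and 4682, 5343 and 4315 CPM in AAV-RBM20 libraries 1 to 3. The groups did not overlap, and the lowest AAV-GFP library was 1.22 times the highest AAV-RBM20 library. The means were 7249 ± 1075 (SD, n = 3) and 4780 ± 521 CPM, a log2 fold change of -0.60 ± 0.18 (SE) with an edgeR adjusted p of 0.618. The 2-sided exact permutation test of log2 CPM gave p = 0.1, the smallest that 3 against 3 libraries allow.

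Tnni2, fast troponin I, had 2181, 2079 and 3226 CPM after AAV-GFP and 1389, 1570 and 1803 CPM after AAV-RBM20. Each group's highest library was the one numbered 3, and the groups were separated by a factor of 1.15. The means of 2496 ± 635 and 1587 ± 207 CPM (SD, n = 3) gave a log2 fold change of -0.65 ± 0.21 (edgeR adjusted p = 0.618, exact permutation p = 0.1).

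Tnnc2, fast troponin C, had 1961, 1859 and 2657 CPM after AAV-GFP and 1159, 1306 and 1331 CPM after AAV-RBM20. It showed the widest gap of the 4 separated genes, a factor of 1.40 between the nearest libraries. Its means were 2159 ± 434 and 1265 ± 93.2 CPM (SD, n = 3), its log2 fold change was -0.77 ± 0.18 (edgeR adjusted p = 0.617, exact permutation p = 0.1), and DESeq2 gave -0.79 with an adjusted p of 0.0177.

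**Figure D1:**
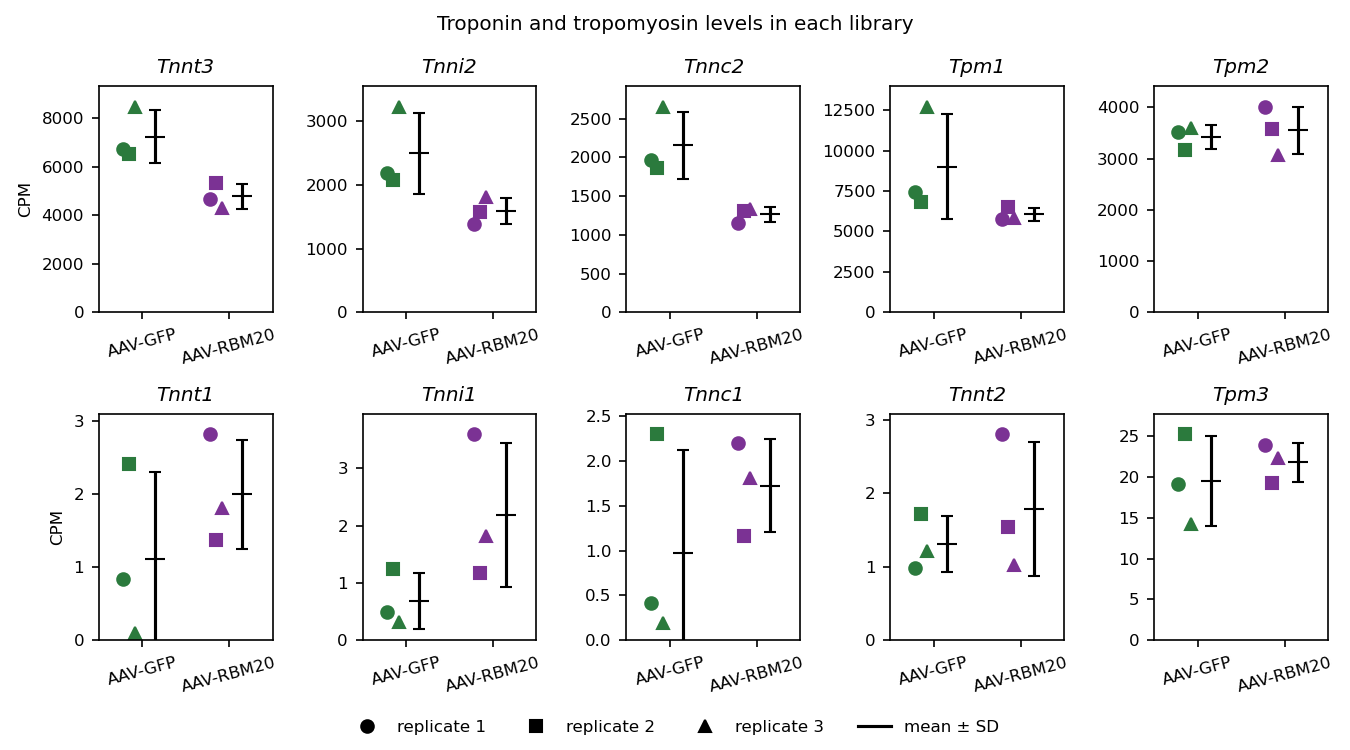
Levels of the 10 genes in each library, in CPM (vertical axes, one scale per gene), for AAV-GFP (green) and AAV-RBM20 (purple), with the symbol giving the replicate number and the bar the mean ± SD of 3 libraries, ending at the axis where it would pass below 0. Tnnt3, Tnni2, Tnnc2 and Tpm1 lie lower in every AAV-RBM20 library than in any AAV-GFP library, and the other 6 genes overlap.

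Within same-numbered libraries, the fast troponins were lower after AAV-RBM20 in 3 of 3 pairs. Any pairing gives this when the groups do not overlap, so it adds no further evidence. The log2 difference ran from -0.29 to -0.975 for Tnnt3, from -0.41 to -0.84 for Tnni2 and from -0.51 to -0.997 for Tnnc2. For each of the 3 genes it was smallest in pair 2 and largest in pair 3. Without both libraries numbered 3 the log2 fold changes and their errors were both smaller, at -0.40 ± 0.086 for Tnnt3 (edgeR adjusted p = 0.0310), -0.52 ± 0.081 for Tnni2 (adjusted p = 0.00693) and -0.63 ± 0.080 for Tnnc2 (adjusted p = 0.00276). In that fit of 2 against 2 libraries, these 3 of the 10 genes passed the threshold, all lower, against 2.05% of all genes tested that were called lower.

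**Figure D2:**
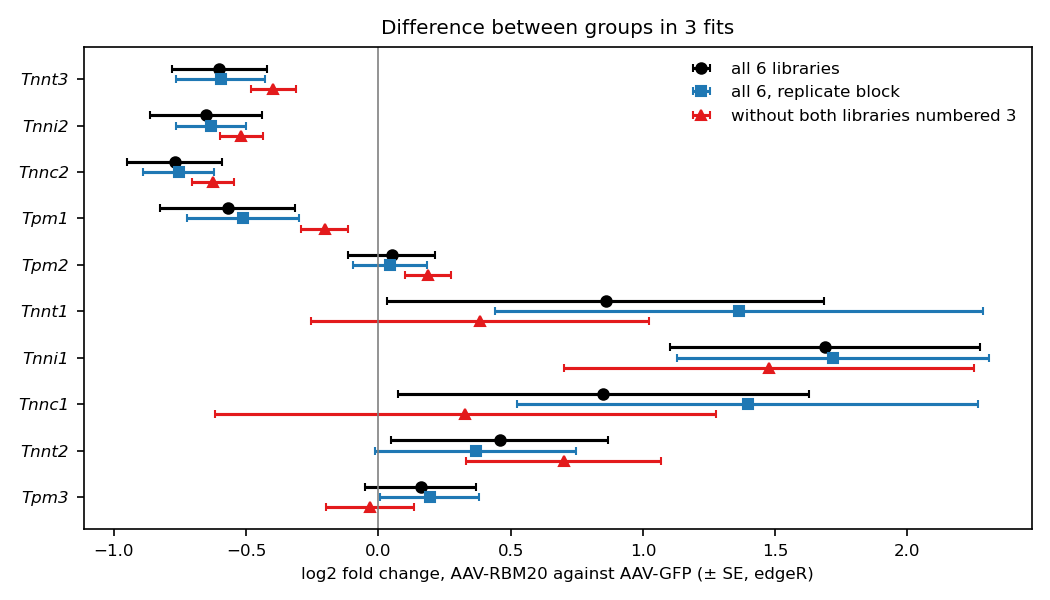
Log2 fold change of AAV-RBM20 against AAV-GFP (horizontal axis, points, with bars of ± 1 SE) for the 10 genes in 3 edgeR fits: all 6 libraries, all 6 with the replicate number as a block, and without both libraries numbered 3. The fast troponins lie below 0 in each fit, while the bars of Tnnt1 and Tnnc1 are several times wider and reach below 0 without the libraries numbered 3.

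The slow troponins were close to the limit of detection. They had 5 to 101 reads per gene and library after AAV-GFP and 47 to 196 after AAV-RBM20, where the fast troponins had 77596 to 446508 and 52499 to 255424. Tnnt1, slow troponin T, had 0.836, 2.42 and 0.0950 CPM after AAV-GFP and 2.82, 1.37 and 1.81 CPM after AAV-RBM20. The AAV-GFP libraries alone spanned a factor of 25.5, from 5 reads in AAV-GFP 3 to 101 in AAV-GFP 2, and AAV-GFP 2 lay above 2 of the AAV-RBM20 libraries. The means were 1.12 ± 1.19 and 2.00 ± 0.745 CPM (SD, n = 3), with a log2 fold change of 0.86 ± 0.83 (edgeR adjusted p = 0.763, exact permutation p = 0.3).

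Tnni1, slow troponin I, had 0.492, 1.25 and 0.323 CPM after AAV-GFP and 3.59, 1.17 and 1.81 CPM after AAV-RBM20. AAV-RBM20 2 lay just below AAV-GFP 2, and this was the one overlap between the groups. The means of 0.687 ± 0.491 and 2.19 ± 1.26 CPM (SD, n = 3) gave a log2 fold change of 1.69 ± 0.59 (edgeR adjusted p = 0.618, exact permutation p = 0.2), the largest of the 10 genes in size.

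Tnnc1, slow and cardiac troponin C, had 0.418, 2.30 and 0.190 CPM after AAV-GFP and 2.20, 1.17 and 1.81 CPM after AAV-RBM20. AAV-GFP 2 was the highest of all 6 libraries and the other 2 AAV-GFP libraries were the lowest. The means were 0.969 ± 1.16 and 1.73 ± 0.520 CPM (SD, n = 3), and the log2 fold change was 0.85 ± 0.78 (edgeR adjusted p = 0.750, exact permutation p = 0.4).

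The 3 slow troponins shared one pattern over the libraries. Each was highest within AAV-GFP in library 2 and lowest in library 3, and each was highest within AAV-RBM20 in library 1 and lowest in library 2. Summed over the 3 genes, 71, 249 and 32 reads were counted after AAV-GFP and 470, 149 and 264 after AAV-RBM20. Each gene was higher after AAV-RBM20 in pairs 1 and 3 and lower in pair 2. The log2 fold changes of Tnnt1, Tnni1 and Tnnc1 were 2.14, 2.43 and 2.52 without AAV-GFP 2 and 0.30, 1.34 and 0.35 without AAV-GFP 3. Leaving out AAV-GFP 2 moved each of them by more than the SE of the full fit, and leaving out AAV-GFP 3 by less. Without both libraries numbered 3 they were 0.39 for Tnnt1, 1.48 for Tnni1 and 0.33 for Tnnc1 (edgeR adjusted p = 0.832, 0.437 and 0.915). In whole muscle, fewer fibres of a type and less RNA per fibre cannot be told apart.

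A ratio of fast to slow reads within a library does not depend on the scaling between libraries. For troponin T, 8069, 2692 and 89302 reads of Tnnt3 were counted per read of Tnnt1 after AAV-GFP and 1659, 3905 and 2381 after AAV-RBM20. The value of AAV-GFP 3 rested on 5 reads of Tnnt1, and its 95% exact (Clopper-Pearson) interval ran from 38266 to 275032. Such intervals cover counting error only. The mean log2 ratio was 13.6 ± 2.58 after AAV-GFP and 11.3 ± 0.62 after AAV-RBM20 (SD, n = 3), a difference of -2.33 with a 2-sided exact permutation p of 0.2, and it was lower in 2 of 3 pairs.

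For troponin I, 4434, 1669 and 9989 reads of Tnni2 were counted per read of Tnni1 after AAV-GFP and 387, 1342 and 995 after AAV-RBM20. This was the one ratio of the 4 whose groups did not overlap, so it was necessarily lower after AAV-RBM20 in 3 of 3 pairs. The nearest libraries were AAV-GFP 2 and AAV-RBM20 2, whose 95% exact intervals of 1272 to 2235 and 1009 to 1827 overlapped. The mean log2 ratio was 12.0 ± 1.29 against 9.65 ± 0.94 (SD, n = 3), a difference of -2.39 with an exact permutation p of 0.1, the smallest that the design allows.

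For troponin C, 4690, 808 and 13985 reads of Tnnc2 were counted per read of Tnnc1 after AAV-GFP and 527, 1117 and 735 after AAV-RBM20. The groups overlapped because AAV-GFP 2 lay below AAV-RBM20 2. The mean log2 ratio was 11.9 ± 2.08 against 9.56 ± 0.54 (SD, n = 3), a difference of -2.31 (exact permutation p = 0.2) that was lower in 2 of 3 pairs.

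For tropomyosin, 387, 271 and 893 reads of Tpm1 were counted per read of Tpm3 after AAV-GFP and 243, 340 and 261 after AAV-RBM20. AAV-GFP 2 lay within the range of the AAV-RBM20 libraries, and AAV-GFP 3 lay far above the rest. The mean log2 ratio was 8.83 ± 0.88 against 8.12 ± 0.26 (SD, n = 3), a difference of -0.71 (exact permutation p = 0.2) that was lower in 2 of 3 pairs. Adjusted over the 4 ratios, every p was 0.2. Without both libraries numbered 3 the differences were -0.87 for troponin T, -1.92 for troponin I, -1.34 for troponin C and -0.17 for tropomyosin.

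**Figure D3:**
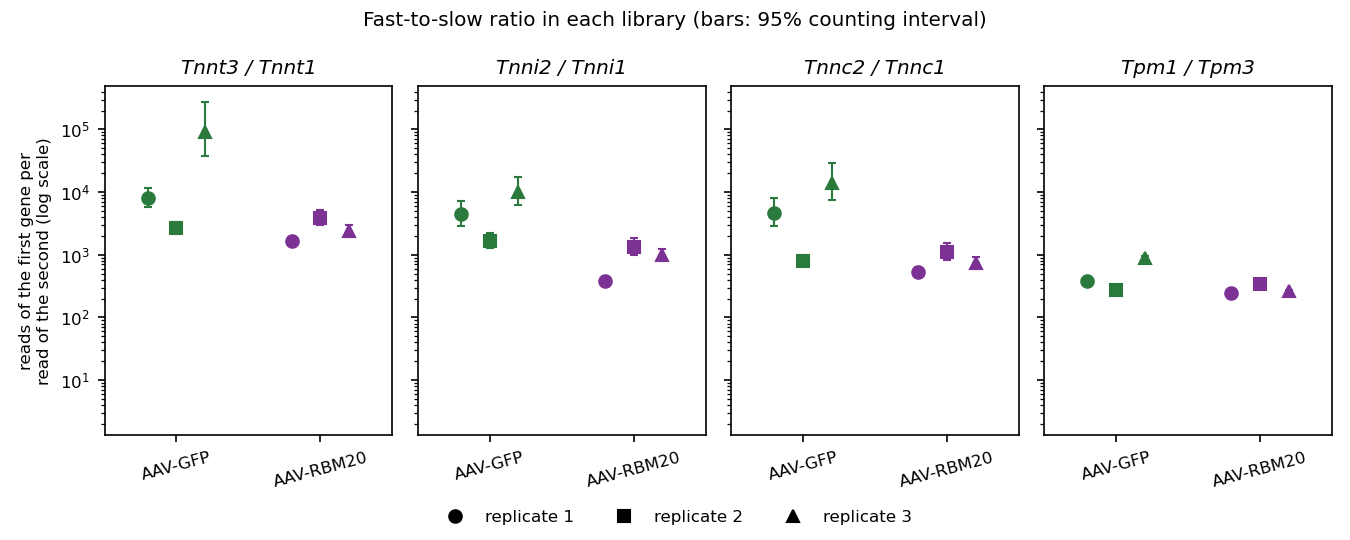
Reads of the fast gene per read of the slow gene in each library (vertical axis, log scale) for the 3 troponin subunits and for tropomyosin, with 95% exact intervals that cover counting error only. The troponin I ratio is lower in all 3 AAV-RBM20 libraries than in any AAV-GFP library, AAV-GFP 3 is the highest library in each panel, and AAV-GFP 2 lies at or near the level of the AAV-RBM20 libraries.

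Tnnt2, cardiac troponin T, had 40, 72 and 64 reads after AAV-GFP and 153, 62 and 50 after AAV-RBM20, which is 0.984, 1.73 and 1.22 CPM against 2.80, 1.54 and 1.03 CPM. AAV-RBM20 1 stood above the other 5 libraries, and the other 2 AAV-RBM20 libraries lay inside the AAV-GFP range. The log2 fold change of 0.46 ± 0.41 (edgeR adjusted p = 0.747) became -0.20 without both libraries numbered 1 and was 0.70 without both numbered 3. Tnni3, the cardiac troponin I gene beside Tnnt1, had 0.294 ± 0.191 CPM after AAV-GFP and 0.235 ± 0.165 CPM after AAV-RBM20 (SD, n = 3; edgeR adjusted p = 0.923).

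Among the tropomyosins, Tpm1 had 7415, 6843 and 12712 CPM after AAV-GFP and 5796, 6528 and 5841 CPM after AAV-RBM20. The groups did not overlap, but AAV-GFP 2 and AAV-RBM20 2 were only a factor of 1.05 apart and AAV-GFP 3 stood well above every other library. The means were 8990 ± 3236 and 6055 ± 411 CPM (SD, n = 3), with a log2 fold change of -0.57 ± 0.26 (edgeR adjusted p = 0.641, exact permutation p = 0.1), and without both libraries numbered 3 it was -0.20 (edgeR adjusted p = 0.248).

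Tpm2, beta-tropomyosin, had 3516, 3163 and 3603 CPM after AAV-GFP and 4004, 3569 and 3074 CPM after AAV-RBM20. The AAV-RBM20 libraries held both the highest and the lowest value, so the groups overlapped fully. The log2 fold change was 0.05 ± 0.16 (edgeR adjusted p = 0.939). Tpm3, slow alpha-tropomyosin, had 19.2, 25.2 and 14.2 CPM after AAV-GFP and 23.9, 19.2 and 22.4 CPM after AAV-RBM20, with all AAV-RBM20 libraries inside the AAV-GFP range. Its log2 fold change was 0.16 ± 0.21 (edgeR adjusted p = 0.831). Tpm4, the remaining tropomyosin gene and mostly a non-muscle form, had 25.8 ± 1.74 and 28.7 ± 3.46 CPM (SD, n = 3; log2 fold change 0.15 ± 0.13, edgeR adjusted p = 0.744).

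Levels of different genes were compared per kilobase of merged exon, as the mean over all 6 libraries. Tnnt3 was highest at 3799 CPM per kb, followed by Tnnc2 at 2140, Tnni2 at 1364, Tpm2 at 1199 and Tpm1 at 1160 CPM per kb. Tpm3 was next at 3.40 CPM per kb, and Tnnc1, Tnnt1, Tnni1 and Tnnt2 followed at 1.30, 0.707, 0.400 and 0.200 CPM per kb. The step from Tpm1 to Tpm3 divided the list into 5 abundant and 5 scarce genes and held in 6 of 6 libraries. The order of Tnni2 and Tpm2 held in 4 libraries, and those of Tpm2 and Tpm1, Tnnt1 and Tnni1, and Tnni1 and Tnnt2 each held in 5, so these neighbours were not separated in every library. The other neighbours kept their order in 6 of 6 libraries. Merged exon length takes in every annotated transcript, so the level of a gene with long non-muscle transcripts, such as Tpm1 and Tpm3, is understated on this scale. The order of the scarce genes also depends on this length, which is 7752 bp for Tnnt2 and 1041 bp for Tnnc1. In CPM, the means of Tnnt2 (1.31 after AAV-GFP and 1.79 after AAV-RBM20) were above those of Tnnc1 (0.969 and 1.73).

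Of the 72 genes in 6 related lists, 70 were tested and none passed an adjusted p of 0.05 in edgeR. Counts of list genes whose groups did not overlap are to be read against 9.04% of all genes tested on the lower side and 7.71% on the higher side. For the 14 other thin filament and assembly genes the median log2 fold change was -0.06, with 1 gene not overlapping on the higher side (Lmod3, chosen after its values were seen) and 1 on the lower side. That gene was Tmod1, which caps the pointed end of the thin filament, with 240 ± 20.0 CPM against 196 ± 19.8 CPM (SD, n = 3; edgeR adjusted p = 0.641), and a log2 fold change that went from -0.30 to -0.14 without both libraries numbered 3. Lmod2, which elongates that end, had 55.3 ± 23.3 CPM after AAV-GFP and 103 ± 34.2 CPM after AAV-RBM20 (log2 fold change 0.90 ± 0.35, edgeR adjusted p = 0.618). Its groups overlapped, and without both libraries numbered 3 the log2 fold change was 0.39 (edgeR adjusted p = 0.734).

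For the 11 other fast fibre genes the median log2 fold change was -0.29, with 9 below 0 and 2 above, and 3 of the 11 did not overlap, all lower (Pvalb, Actn3 and Mybpc2, the last chosen after its values were seen), against 9.04% of all genes tested. Pvalb, the calcium buffer of fast fibres, had 6544 ± 2061 CPM against 4561 ± 487 CPM, and Actn3, the Z-disc actinin of fast fibres, had 7594 ± 908 CPM against 5151 ± 1067 CPM (SD, n = 3; edgeR adjusted p = 0.641 and 0.618). Without both libraries numbered 3 the log2 fold changes went from -0.52 to -0.20 for Pvalb, from -0.56 to -0.31 for Actn3 and from -0.43 to -0.20 for Mybpc2. In that fit the split of 9 below and 2 above did not hold. Myl1, Myoz1, Casq1 and Atp2a1 went from below to above 0, at 0.088, 0.088, 0.017 and 0.13. Myh1 and Myh2, the genes above 0 in the full fit, went from 0.42 to 0.18 and from 0.76 to 0.25. Myh4 and Mylpf stayed below 0, at -0.41 and -0.20. The 12 other slow fibre genes had a median of 0.11, with 8 above 0 and 4 below. Of the 12, 1 did not overlap, on the higher side, against 7.71% of all genes tested. That gene was Mybpc1, slow myosin binding protein C, with 1476 ± 109 CPM against 2087 ± 300.1 CPM. Atp2a2, the slow calcium pump, had 37.9 ± 6.35 CPM against 53.0 ± 8.46 CPM (SD, n = 3, both with an edgeR adjusted p of 0.618). Myh7, a slow fibre gene below 0, was chosen after its values were seen. It had 2.61 ± 3.02 CPM against 1.70 ± 0.855 CPM (SD, n = 3, log2 fold change -0.62, edgeR adjusted p = 0.868). Without both libraries numbered 3 the split of 8 above and 4 below in the slow list did not hold either. Myl2, Myoz2 and Csrp3 went from above to below 0, at -0.58, -0.31 and -0.42. Myh7, Casq2, Ankrd2 and Pln stayed below 0, and Myl3, Myl6b, Atp2a2, Mybpc1 and Actn2 stayed above 0.

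For the 21 fibre type regulators the median log2 fold change was 0.00, with 7 genes lower and 3 higher without overlap, against 9.04% and 7.71% of all genes tested. Vgll2, a TEAD co-factor, had 29.3 ± 3.92 CPM against 42.5 ± 5.85 CPM, and the myogenic factor Myod1 had 39.7 ± 0.724 CPM against 31.7 ± 1.05 CPM (SD, n = 3; both with an edgeR adjusted p of 0.618). Without both libraries numbered 3, Vgll2 had an edgeR adjusted p of 0.0411. The share of all genes called higher in that fit was not counted, which holds for each such call below. Of the 12 genes of immature or denervated muscle, 10 were tested, with a median of 0.78 and 4 genes higher without overlap, against 7.71% of all genes tested. Runx1, a transcription factor raised in denervated muscle, had 5.58 ± 0.698 CPM against 13.3 ± 0.739 CPM (edgeR adjusted p = 0.257), and with the replicate number as a block its adjusted p was 0.0271, the 1 call that the block added in these lists. Without both libraries numbered 3 the adjusted p was 0.000978 for Runx1 and 0.00539 for Ncam1, a neural adhesion molecule of denervated fibres chosen after its values were seen. Myh8, perinatal myosin heavy chain, had 1.52 ± 0.561 CPM against 6.05 ± 3.74 CPM (SD, n = 3, edgeR adjusted p = 0.617). DESeq2 called 3 genes of this list, all higher, against 0.362% of its genes called in either direction. They were Runx1 (DESeq2 adjusted p = 4.47e-07), Myh8 (0.00376) and Myh3 (0.0485), the last chosen after its values were seen.

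**Figure D4:**
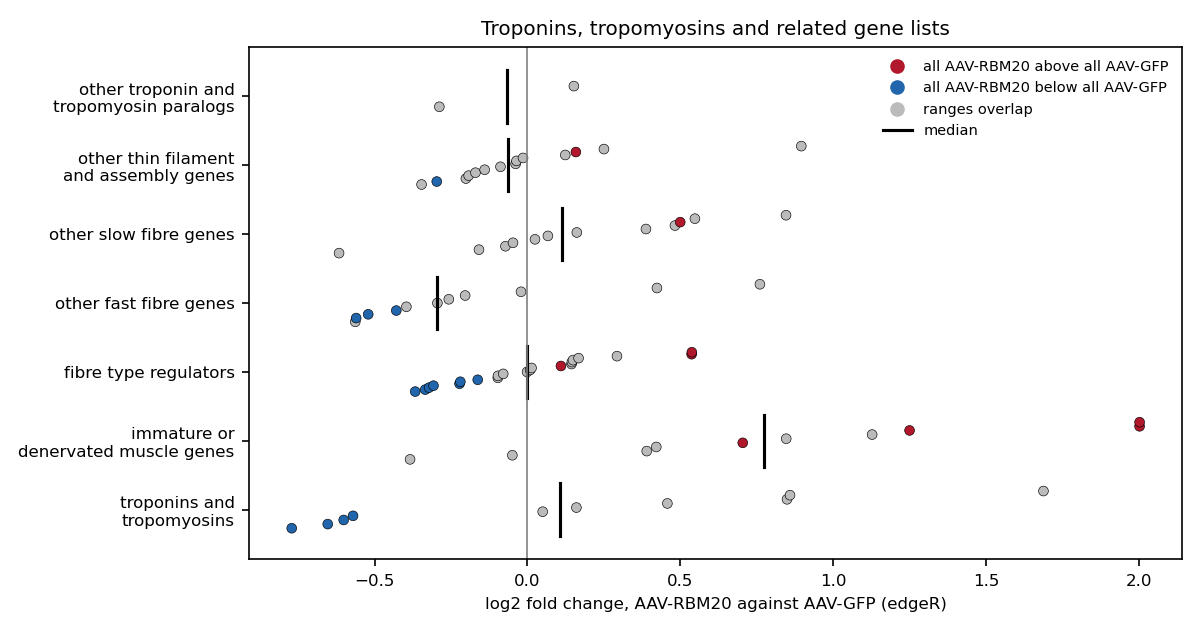
Log2 fold change of AAV-RBM20 against AAV-GFP (horizontal axis, edgeR) for each tested gene of the 6 related lists and for the 10 troponin and tropomyosin genes, with colour for groups that do not overlap and a black line at each list's median. The troponins and tropomyosins split into 4 separated genes between -0.77 and -0.57 and 6 overlapping genes between 0.05 and 1.69.

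Marker lists were summed per library and compared between the groups, and only the skeletal muscle list did not overlap. The 6 skeletal muscle markers (Ckm, Acta1, Myh4, Mylpf, Tnnt3 and Pvalb) summed to 85510 to 92259 CPM after AAV-GFP and 50635 to 80858 CPM after AAV-RBM20. Tnnt3 is one of the genes described here, and Myh4, Mylpf and Pvalb are also in the list of fast fibre genes. The sum is therefore not separate from those values. The 6 macrophage markers summed to 15.2, 13.5 and 46.9 CPM after AAV-GFP and 32.8, 28.6 and 70.2 CPM after AAV-RBM20, and the 6 fibroblast markers to 532, 491 and 1035 CPM and 998, 844 and 1087 CPM, both higher in 3 of 3 pairs. The summed ranges of both lists overlapped, with AAV-GFP 3 above AAV-RBM20 1 and AAV-RBM20 2 in each. The part of macrophages and fibroblasts in the fast troponin values was not tested. The summed ranges also overlapped for smooth muscle (114 to 153 against 118 to 150 CPM), endothelial (146 to 341 against 223 to 338 CPM) and Schwann cell markers (22.1 to 52.1 against 32.3 to 43.4 CPM). The 6 cardiomyocyte markers summed to 3.07 to 9.75 CPM and 2.72 to 8.16 CPM. Of these, Nppa, Nkx2-5 and Bmp10 were at 0 in at least 1 library, and the other 3 had a count in every library.

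The mean log2 CPM of Tnnt1, Tnni1 and Tnnc1 was compared over the 6 libraries with that of 11540 other genes. The 5 genes with the most similar pattern were Slc12a4, a potassium-chloride cotransporter (Pearson r = 0.993), Mast3, a microtubule-associated kinase (r = 0.989), Fzd2, a Wnt receptor (r = 0.985), the predicted gene Gm38357 (r = 0.984) and Cit, citron kinase (r = 0.982). Slc12a4 had 10.9, 13.5 and 8.70 CPM after AAV-GFP and 14.7, 11.9 and 13.2 CPM after AAV-RBM20. Like the slow troponins it was lowest in AAV-GFP 3. It was highest in AAV-RBM20 1, as were Tnnt1 and Tnni1 but not Tnnc1. In all, 181 genes had an r above 0.9, and the 6 points share the low value of AAV-GFP 3, so these values are a description.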

How the data were processed

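RNA-seq libraries of 6 TA muscles were grouped by the treatment in their labels, and replicate numbers were taken from the titles. HISAT2 (mapping to mm10) and HTSeq (reads per Ensembl gene) were used by the authors; versions, annotation and strand setting were not given in the sources used here. The deposited counts are raw whole numbers. A second deposited table of normalised values was not used. Symbols and positions came from GENCODE M21 (55141 of 55401 identifiers), and promoters from RefSeq.

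Groups were compared with the edgeR 4.0.16 quasi-likelihood test in R 4.3.3 (filterByExpr, TMM, no covariate), with Benjamini-Hochberg adjustment over the 17222 genes tested and a threshold of 0.05. CPM used TMM-scaled library sizes. The SE is the log2 fold change divided by the square root of F. Scripts were tested on simulated data. Alternatives were DESeq2 1.42.0 and limma 3.58.1 (voom), other scalings and filters, a replicate block and leaving out libraries. Deviations of same-numbered libraries from their group means correlated at 0.418, 0.201 and 0.484. Same-numbered libraries were therefore treated as pairs in the replicate block and in the counts of pairs, while the other tests were unpaired. Numbers 1 and 2 were not told apart by this check (0.216 between AAV-GFP 2 and AAV-RBM20 1, and 0.131 between AAV-GFP 1 and AAV-RBM20 2), and the labels do not say what the numbers stand for. Replicates differed well beyond sampling noise (chi-square per degree of freedom 15.1 to 545).

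The genes and lists were chosen with earlier results of these data known. Named genes were the 10 genes, Rbm20, the 2 genes of each list with the smallest unadjusted p, and the 5 genes most correlated with the slow troponins (mean log2 CPM of at least 1).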

Additional observations from a re-analysis of the deposited data

How the results depend on the processing

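The count of troponin and tropomyosin genes past the threshold was 0 in the full edgeR fit, 1 in DESeq2 (Tnnc2) and between 0 and 3 when libraries were left out, with 3 only without both libraries numbered 3. The count over the related lists was 0 in the full fit, 1 with no filter on low counts, 3 in DESeq2 (Runx1, Myh8 and Myh3), 1 with the replicate block and between 0 and 3 when libraries were left out. Over all genes, DESeq2 called 0.362% and the replicate block 0.145%. The share was not counted with no filter, for limma-voom, or for genes called higher without both libraries numbered 3. With the replicate block the paired differences kept the adjusted p of Tnnc2 at 0.0811, of Tnni2 at 0.102 and of Tnnt3 at 0.153; among the 10 genes and the related lists the block changed no call other than that of Runx1. Leaving out libraries took the log2 fold change of Tnnt2 from -0.20 to 0.78, of Tpm2 from -0.039 to 0.19 and of Tpm3 from -0.034 to 0.45, so their signs reversed with the libraries used, and the cause was not tested. The other 7 genes kept their sign in DESeq2, with DESeq2 size factors, with no filter on low counts, with the replicate block and with libraries left out. For upper quartile factors, the filter of 1 CPM in 3 libraries and limma-voom, only counts of calls were tabulated. The fast-to-slow ratio differences ran from -3.76 to -0.87 for troponin T, -3.42 to -1.76 for troponin I, -3.70 to -1.34 for troponin C and -1.22 to -0.17 for tropomyosin over the libraries left out, and no sign changed. With 3 libraries a group the exact tests cannot go below p = 0.1, or 0.25 for 3 signed pairs. In AAV-GFP 1 and AAV-GFP 3, Tnnt1 had 34 and 5 reads, Tnni1 had 20 and 17, and Tnnc1 had 17 and 10. All 3 troponin ratios are therefore limited by few slow troponin reads in these libraries.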

Other observations

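Set against skeletal actin (Acta1), a thin filament gene outside the list that was chosen for this after the values were seen, 0.337, 0.366 and 0.410 reads of Tnnt3 were counted per read of Acta1 in AAV-GFP libraries 1 to 3 and 0.236, 0.271 and 0.320 in AAV-RBM20 libraries 1 to 3, with no overlap. The same ratio of Tnni2 to Acta1 ran from 0.109 to 0.156 after AAV-GFP and from 0.0699 to 0.134 after AAV-RBM20, and that of Tnnc2 to Acta1 from 0.0980 to 0.128 and from 0.0583 to 0.0988. Both overlapped through AAV-RBM20 3. The ratio of Tpm1 to Tpm2 reads, also chosen after the values were seen, was 2.11, 2.16 and 3.53 after AAV-GFP and 1.45, 1.83 and 1.90 after AAV-RBM20, with no overlap. The fast subunits kept closer ratios to each other, with 3.19 to 3.50 reads of Tnnt3 per read of Tnnc2 after AAV-GFP and 3.24 to 4.09 after AAV-RBM20. None of these ratios was tested.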
